A study of Mus musculus with 24 samples.

Results

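The report follows 41 genes of the oral and surface epithelium through the jaws of mouse embryos with and without a Tgfbr2 mutation. They were chosen, with earlier results of these data known, as genes that epithelial cells use and mesenchymal cells mostly do not. They comprise 10 keratins, 2 secreted products of maturing keratinocytes, 9 desmosome genes, 3 genes of cell adhesion and 3 claudins. The others are 6 transcription factors, 2 splicing factors, a surface protease with its inhibitor, and 4 other epithelial genes. Each gene is represented by its brightest probe set among those that name that gene alone. All 41 were among the 18194 genes so represented and among the 13850 kept for testing. Of the 41, 35 lay above the 40th percentile of the array on all 24 arrays. Dsg1a and Them5 did so on 10 arrays and Ovol1 on 11, for the most part distal ones, so these 3 had to differ between the ends in order to be tested, and their end differences are given as values without a test.

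The arrays measured total RNA of mandible and maxilla at embryonic day 13.5, in the strain given as C57B6. Embryos came from matings of Wnt1cre;Tgfbr2fl/+ with Tgfbr2fl/fl mice. Tgfbr2 encodes the type II receptor for TGF-beta, and Wnt1-Cre is known to act in the neural crest, which forms jaw mesenchyme but not jaw epithelium. Mutants were picked out by their cleft palate and a defect of the calvaria, the skull vault, and their genotype is not spelled out further. Controls were littermates whose Cre status is not given. Each jaw was cut in a distal part and a proximal part, which gives 8 groups of 3 arrays: the distal and the proximal end of mandible and of maxilla, in control and in mutant. The 4 arrays that share a genotype and a replicate number are called a set here. The labels do not say whether a replicate is an embryo or a pool, so the p-values measure only how far these samples spread, and that spread may be technical. With 3 arrays a group, their number limits the precision.

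The epithelium of the early jaw is a sheet of ectoderm over mesenchyme. A basal layer marked by Krt5, Krt14 and the transcription factor Trp63 rests on a basement membrane, and a flat outer layer, the periderm, covers it. The cells are held together by adherens junctions, built on E-cadherin (Cdh1), and by desmosomes, which tie the keratin filaments of neighbouring cells to each other. In the jaw this sheet also forms the tooth buds, the tongue surface and the lip and palate edges, and it sends signals such as Shh to the mesenchyme.

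Array medians lay between log2 7.0 and 7.08. Tgfbr2 itself read 12.42 ± 0.13 in the mutant and 12.11 ± 0.12 in the control arrays (SD, n = 12 each), and since the place of its probe set relative to the deleted part is not given, this checks nothing. Gapdh control probe sets, whose 3' minus 5' difference is a sign of RNA quality, gave 0.25 to 0.77 in mutant sets 1 and 3, 0.04 to 0.10 in mutant set 2 and -0.07 to 0.16 in the controls. Xist was low in control set 1 and mutant set 1 (6.15 to 6.98) and high in the others (12.89 to 13.81), while Y-linked genes averaged 3.72 to 4.04 in control sets 2 and 3 and 8.34 to 10.07 elsewhere. Mutant sets 2 and 3 therefore held both kinds of transcript, and every genotype comparison sets groups of unlike sex transcripts side by side, whose part in the results was not tested.

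Both maxilla arrays of mutant replicate 1 stood apart from the rest. Krt8 read 11.68 distally and 11.28 proximally there, against 8.47 to 9.18 on the other 10 maxilla arrays. Krt18 (11.16 and 11.15), Epcam (12.51 and 12.49), Cldn6 (10.20 and 10.04) and Cldn7 (10.61 and 10.91) were likewise above all 10. Of the epithelial genes followed here, the distal array was above every other distal maxilla array for 21 and below for 2. The proximal array was above every other proximal maxilla array for 18 and below for 9. The 9 include Krt15 (10.29 against 11.11 to 11.4), Trp63 (9.59 against 9.79 to 10.73) and Krtdap (5.56 against 6.21 to 8.1). Krt15 was lowest distally too, at 11.88 against 12.24 to 12.96. Genes of other epithelia and of neural tissue, picked after their values were seen, were high on both maxilla arrays of mutant replicate 1. Elf5, a transcription factor of glandular epithelia, read 11.03 and 10.91 against 6.56 to 7.61, and Neurod1, a neuronal one, 10.16 and 11.47 against 4.70 to 8.44. Sox2 (11.46 and 11.64 against 8.26 to 10.29) was high too. So was Six3 (8.80 and 8.05 against 6.33 to 6.70), which belongs to a list of eye, olfactory and pituitary epithelium markers. Other genes of that list were not: Omp, of mature olfactory neurons, read 6.78 and 6.76 against 6.47 to 7.17. Pax6, Pomc, Sox3, Crybb1, Tyr and Pmel were likewise not above the other 10 on both arrays. Counts and genes that moved without these arrays are given without them too, an alternative chosen after seeing the data.

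Distal ends carried more epithelial RNA than proximal ends in both jaws, in controls and in mutants. The mean over the 41 genes was 10.02, 10.04 and 10.29 on the 3 control arrays of the distal mandible and 9.06, 8.85 and 8.97 on those of the proximal mandible. Mutant arrays read 10.17, 10.13 and 10.46 distally and 8.77, 8.91 and 9.06 proximally. In the maxilla the control arrays read 9.85, 9.81 and 9.45 distally and 8.38, 8.34 and 8.23 proximally, and the mutant arrays 10.17, 9.86 and 9.50 against 8.88, 8.71 and 8.73. No proximal array reached any distal array of its jaw. Within single sets the distal end was higher by 0.96 to 1.40 in the mandible and by 0.76 to 1.46 in the maxilla. In bulk tissue, fewer cells of a type and less RNA per cell cannot be told apart.

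**Figure D1:**
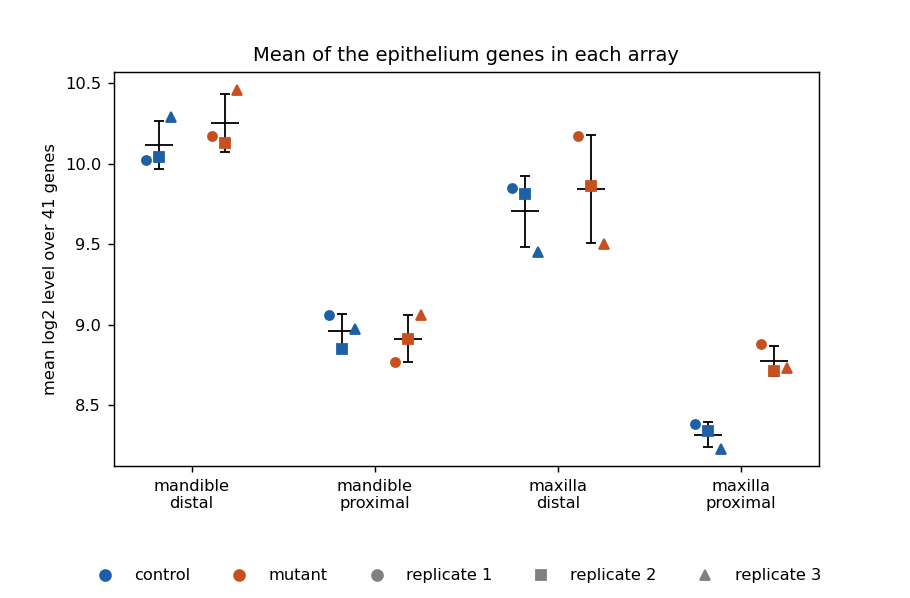
Mean log2 level over the 41 epithelial genes on each of the 24 arrays, by region (x axis), with control in blue, mutant in orange, a marker shape per replicate and the group mean ± SD. Distal groups average 9.70 to 10.25 and proximal groups 8.32 to 8.96, and the lowest group is the control proximal maxilla.

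Gene by gene, with both genotypes averaged, 37 of the 41 genes were higher in the distal than in the proximal mandible and none was lower (limma, adjusted p under 0.05 over 13850 genes), where 12.7% of all genes were called higher and 13.1% lower. In the maxilla 36 of 41 were higher and none lower, against 6.89% of all genes called higher and 6.89% lower. Both counts include the 3 genes that had to differ, and with no filter on low values, where all genes are tested, they were again 37 and 36. Since the list was chosen with earlier results of these data known, the counts beside these shares are a description and no test of the list. The median difference over the 41 was 1.16 in the mandible and 1.21 in the maxilla on the log2 scale, against 0.01 over all genes in the mandible. All 6 distal arrays lay above all 6 proximal arrays for 38 of the genes in the mandible (7.03% of all genes) and for 27 in the maxilla (2.11%). The direction was the same in both genotypes, with medians of 1.05 in control and 1.25 in mutant mandible and of 1.42 and 1.01 in the maxilla. Other cell types differed between the ends as well, and their part in the result was not tested. Of 12 skeletal muscle markers 11 were lower in the distal mandible, with summed linear levels of 1728 to 4292 on the control distal and 22361 to 34574 on the control proximal arrays. Of 10 neuron markers 9 were lower in the distal maxilla, and 8 of 10 cartilage markers were lower there. The neuron markers summed to 5615 to 7039 on control distal and 20333 to 25954 on control proximal arrays. On mutant arrays they summed to 5919 to 10820 and 11265 to 31318. General mesenchyme markers were called both ways in the mandible (4 higher and 4 lower of 15), with 3 higher and none lower in the maxilla.

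**Figure D2:**
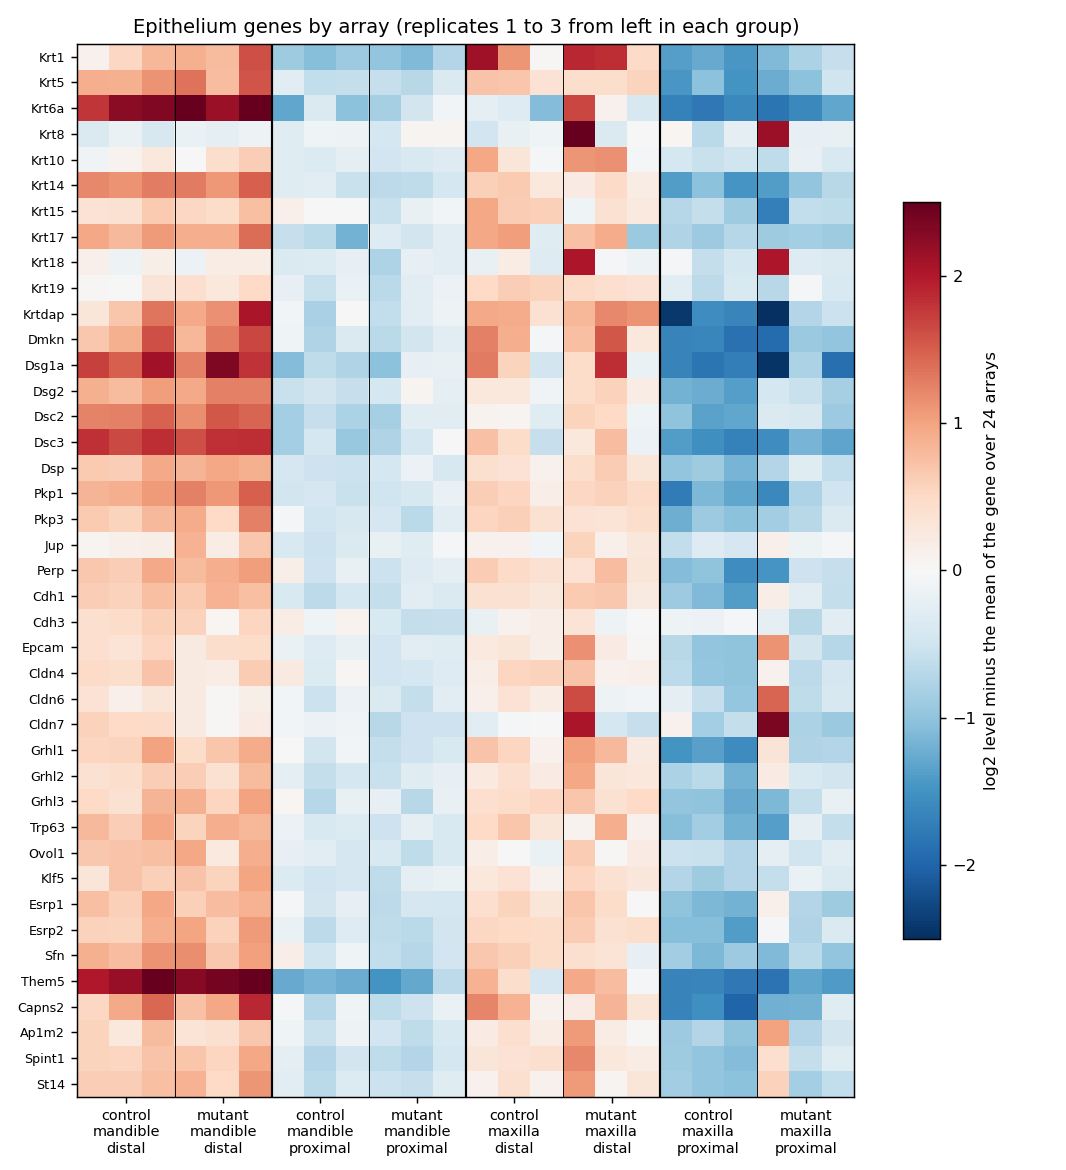
Heat map of the 41 genes (y axis, by role) on the 24 arrays (x axis, replicates 1 to 3 from the left within each group), coloured by log2 level minus the gene's mean over all arrays. Distal groups are high and proximal groups low for nearly every gene, while Krt8, Krt18, Cldn6 and Cldn7 are high chiefly on the 2 maxilla arrays of mutant replicate 1.

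Among the keratins, the filament proteins of epithelial cells, 8 of 10 were higher distally in both jaws, and the simple pair Krt8 and Krt18 did not pass the test. Krt5, of the basal layer, read 12.55, 12.54 and 12.77 on the control distal mandible arrays and 11.35, 11.03 and 11.05 on the proximal ones, and 13.00, 12.42 and 13.22 against 11.07, 10.95 and 11.28 in the mutants. Every distal array was above every proximal one, and the difference was 1.63 ± 0.14 (SE), 3.1-fold, in the mandible and 1.66 ± 0.14, 3.16-fold, in the maxilla (limma, adjusted p = 6.96e-08 and 5.51e-07). Its filament partner Krt14 was higher by 1.73 and 1.56. Krt6a, a keratin of oral and stressed epithelium, had the largest keratin difference in the mandible. Its control distal arrays read 10.59, 11.06 and 11.11 and its proximal ones 7.51, 8.45 and 7.78, with mutant values of 11.38, 10.96 and 11.82 against 7.98, 8.35 and 8.73. These groups lay far apart, at 3.02 ± 0.28, 8.12-fold (adjusted p = 1.59e-07), whereas in the maxilla the difference was 1.58 ± 0.28, 3.00-fold (adjusted p = 6.16e-04). Krt1, a keratin of the suprabasal layers, differed by 1.74 in the mandible and by 2.34 in the maxilla. Its control distal maxilla arrays read 11.20, 10.18 and 9.11, a wide spread, against 7.69, 7.82 and 7.63 proximally. Krt10, the partner of Krt1, Krt15, of basal cells, Krt17, of the periderm and skin appendages, and Krt19 were higher by 0.57 to 1.59 in the mandible and by 0.90 to 1.31 in the maxilla.

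Of the filament pair of simple epithelia, Krt8 did not follow, and Krt18 did so in the mandible without passing the test. Krt8 read 8.77, 8.98 and 8.73 on control distal and 8.84, 9.03 and 9.0 on control proximal mandible arrays, ranges that overlap. Its differences were -0.10 ± 0.41 in the mandible and 0.09 in the maxilla (limma, adjusted p = 0.888 and 0.941). Krt18 differed by 0.42 ± 0.36 and 0.21 (adjusted p = 0.443 and 0.817). In the mandible it was higher distally in each of the 6 sets, by 0.22 to 0.63, and no distal array overlapped a proximal one. Without the mutant replicate 1 maxilla arrays, which widen the spread of these genes in the shared fit, Krt18 passed the test in the mandible (0.42, adjusted p = 0.0096) and Krt8 did not (adjusted p = 0.559). In the maxilla neither passed without them (adjusted p = 0.232 and 0.961).

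Sequences of 4 genes are shown, all from among those that hold the E-box marked below, and the genes differ in how they vary. Krt5 and Epcam were called higher distally in both jaws, and Krt8 and Krt18 in neither. Krt8, Krt18 and Epcam were raised on the 2 outlying arrays. Each is the 250 bases before the start of the gene, 5′ to 3′ along the gene's strand, from RefSeq on GRCm38.p6, with the E-box CACCTG in capitals, a sequence known to be bound by repressors of epithelial genes. On the opposite strand the same box reads CAGGTG. They lie at chr15:101712906-101713155, minus strand (Krt5), chr15:102004343-102004592, minus strand (Krt8), chr15:102027966-102028215, plus strand (Krt18), and chr17:87635729-87635978, plus strand (Epcam).
Krt5: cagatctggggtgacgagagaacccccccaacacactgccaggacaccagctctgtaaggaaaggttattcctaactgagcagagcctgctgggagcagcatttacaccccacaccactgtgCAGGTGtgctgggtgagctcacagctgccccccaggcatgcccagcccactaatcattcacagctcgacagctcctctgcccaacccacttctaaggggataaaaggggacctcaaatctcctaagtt
Krt8: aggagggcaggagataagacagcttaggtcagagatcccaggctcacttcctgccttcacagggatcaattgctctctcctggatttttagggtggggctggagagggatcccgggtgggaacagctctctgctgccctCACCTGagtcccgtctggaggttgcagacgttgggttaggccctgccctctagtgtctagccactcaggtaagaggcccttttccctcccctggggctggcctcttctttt
Krt18: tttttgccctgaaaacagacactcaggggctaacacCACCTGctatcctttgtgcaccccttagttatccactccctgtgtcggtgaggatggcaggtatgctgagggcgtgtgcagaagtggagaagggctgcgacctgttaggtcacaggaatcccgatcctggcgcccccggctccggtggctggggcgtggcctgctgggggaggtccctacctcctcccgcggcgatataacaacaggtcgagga
Epcam: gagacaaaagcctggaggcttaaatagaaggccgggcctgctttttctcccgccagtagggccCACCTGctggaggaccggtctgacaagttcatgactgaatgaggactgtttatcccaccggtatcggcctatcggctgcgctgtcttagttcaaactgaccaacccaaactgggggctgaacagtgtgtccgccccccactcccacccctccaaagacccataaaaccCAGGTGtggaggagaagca
The E-box begins 128 bases before the start in Krt5, 111 in Krt8, 214 in Krt18 and at both 187 and 19 in Epcam. The promoter table held 20 of the 41 genes. Of these, 11 (55.0%) had the letters CACCTG on either strand, against 19.4% of the 27025 genes in the table: Krt5, Krt8, Krt10, Krt18, Epcam, Cldn4, Cldn6, Cldn7, Grhl3, Sfn and Ap1m2. This set holds both genes that followed the ends, such as Krt5 and Sfn, and Krt8, which did not pass the test. The Grainyhead motif AACCGGTT was in none of the 20 (0.137% of all genes), the AP-1 motif TGANTCA in 3 of the 20 (7.82% of all genes) and the GC box GGGCGG in 9 (45.0% against 35.4%), each on either strand. A match describes letters in a window and is not a binding site.

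Krtdap and Dmkn, secreted proteins of differentiating keratinocytes, were both higher distally, in the maxilla (2.56 ± 0.34, 5.89-fold, and 2.28 ± 0.25, 4.86-fold) and in the mandible (1.39 and 1.59). The difference between the jaws was called for neither (-1.17 for Krtdap, adjusted p = 0.201). Its control arrays read 9.58, 9.55 and 9.0 in the distal and 6.21, 7.07 and 6.97 in the proximal maxilla, and its mutant arrays 9.45, 9.83 and 9.75 against 5.56, 7.89 and 8.10. The ends stayed apart on all arrays of each genotype, although the mutant proximal arrays spread over more than 2 log2 units.

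All 9 desmosome genes were higher distally in both jaws, 1 of them, Dsg1a, a gene that had to be. Desmosomal cadherins span the gap between cells. Dsg1a, of suprabasal cells, had differences of 2.44 in the mandible and 2.31 in the maxilla, where its proximal arrays read low, at 3.88 to 6.13 over both jaws. Dsc3, of basal cells, read 11.34, 11.16 and 11.36 on control distal and 8.67, 9.07 and 8.57 on control proximal mandible arrays, and 11.13, 11.35 and 11.37 against 8.77, 9.07 and 9.52 in mutants. These arrays did not overlap, with a difference of 2.34 ± 0.19, 5.07-fold (limma, adjusted p = 4.97e-08), and of 1.69 ± 0.19, 3.23-fold, in the maxilla (adjusted p = 7.77e-06). Dsc2, the broadest of the desmocollins, read 11.08, 11.09 and 11.31 against 8.99, 9.27 and 9.05 in the control mandible and 9.93, 9.90 and 9.53 against 8.84, 8.50 and 8.54 in the control maxilla. Its mutant mandible averaged 11.23 ± 0.21 distally (SD, n = 3), against arrays of 9.0, 9.55 and 9.55 proximally, and its mutant maxilla arrays read 10.40, 10.33 and 9.74 against 9.48, 9.43 and 8.93. The gap between the ends was wider in the mandible, at 1.96 ± 0.14 and 3.90-fold (adjusted p = 1.12e-08), than in the maxilla, at 1.02. Dsg2 was higher by 1.40 and 1.21. The plaque proteins, which join the cadherins to keratin filaments, rose with them. Pkp1 and Pkp3, the plakophilins, were higher by 1.17 to 1.66, desmoplakin (Dsp) by 1.23 and 1.16, and plakoglobin (Jup), which also serves adherens junctions, by 0.65 and 0.42. Perp, a membrane protein of desmosomes and a target of Trp63, was higher by 1.11 and 1.53.

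Of the adhesion genes, Cdh1 was higher distally by 1.16 and 1.12 and Epcam by 0.69 and 0.81 (adjusted p = 0.0305 in the mandible). P-cadherin (Cdh3), of basal and placode cells, was higher by 0.66 in the mandible and missed the threshold in the maxilla (0.31, adjusted p = 0.0566). Of the claudins, which seal tight junctions, Cldn4 passed in both jaws (0.67 and 0.97). Cldn6 (0.53 and 0.58, adjusted p = 0.226 and 0.266) and Cldn7 (0.67 and 0.24, adjusted p = 0.322 and 0.843) did not. Both claudins passed in the mandible without the mutant replicate 1 maxilla arrays, at the same differences (limma, adjusted p = 0.0011 for Cldn6 and 2.04e-04 for Cldn7), and Cldn6 then passed in the maxilla too (0.62, adjusted p = 0.00166). Without those arrays 40 of the 41 genes were called in the mandible and 37 in the maxilla.

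All 6 transcription factors, among them Ovol1, which had to differ, and both splicing factors were higher distally in both jaws. Trp63, the master factor of stratified epithelium, read 11.77, 11.59 and 11.94 on control distal and 10.82, 10.59 and 10.62 on control proximal mandible arrays, which did not overlap. Its difference was 1.12 ± 0.16, 2.17-fold, in the mandible and 1.31 ± 0.16, 2.49-fold, in the maxilla (limma, adjusted p = 3.46e-05 and 1.89e-05). The Grainyhead-like factors, which act in epithelial barrier formation and closure, were higher by 0.93 to 1.03 in the mandible and by 0.95 (Grhl2), 1.35 (Grhl3) and 1.5 (Grhl1) in the maxilla. Ovol1, a zinc finger repressor, was higher by 1.09 and 0.62 and Klf5 by 1.03 and 0.90. Esrp1 and Esrp2, which set epithelial splice forms, were higher by 1.13 to 1.26.

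The remaining 6 genes were also called in both jaws. Them5, a mitochondrial acyl-CoA thioesterase, was low in both proximal ends and had to differ. Its control arrays read 8.12, 8.30 and 8.62 distally and 4.87, 4.96 and 4.88 proximally, and its mutant arrays 8.40, 8.52 and 9.0 against 4.63, 4.85 and 5.48. Distal and proximal arrays were separated by more than 2 log2 units. In the maxilla the control arrays read 7.0, 6.56 and 5.70 against 4.46, 4.47 and 4.34, and the ends lay apart here too. How near background the proximal values lie was not tested. Sfn, the epithelial 14-3-3 protein, was higher by 1.31 and 1.32, and Capns2, a small calpain subunit, by 1.44 and 1.91. Ap1m2, the epithelial subunit of a clathrin adaptor, was higher by 0.88 and 0.82. The surface protease St14 and its inhibitor Spint1 were higher by 1.19 and 1.2 in the mandible and by 0.97 and 1.02 in the maxilla.

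**Figure D3:**
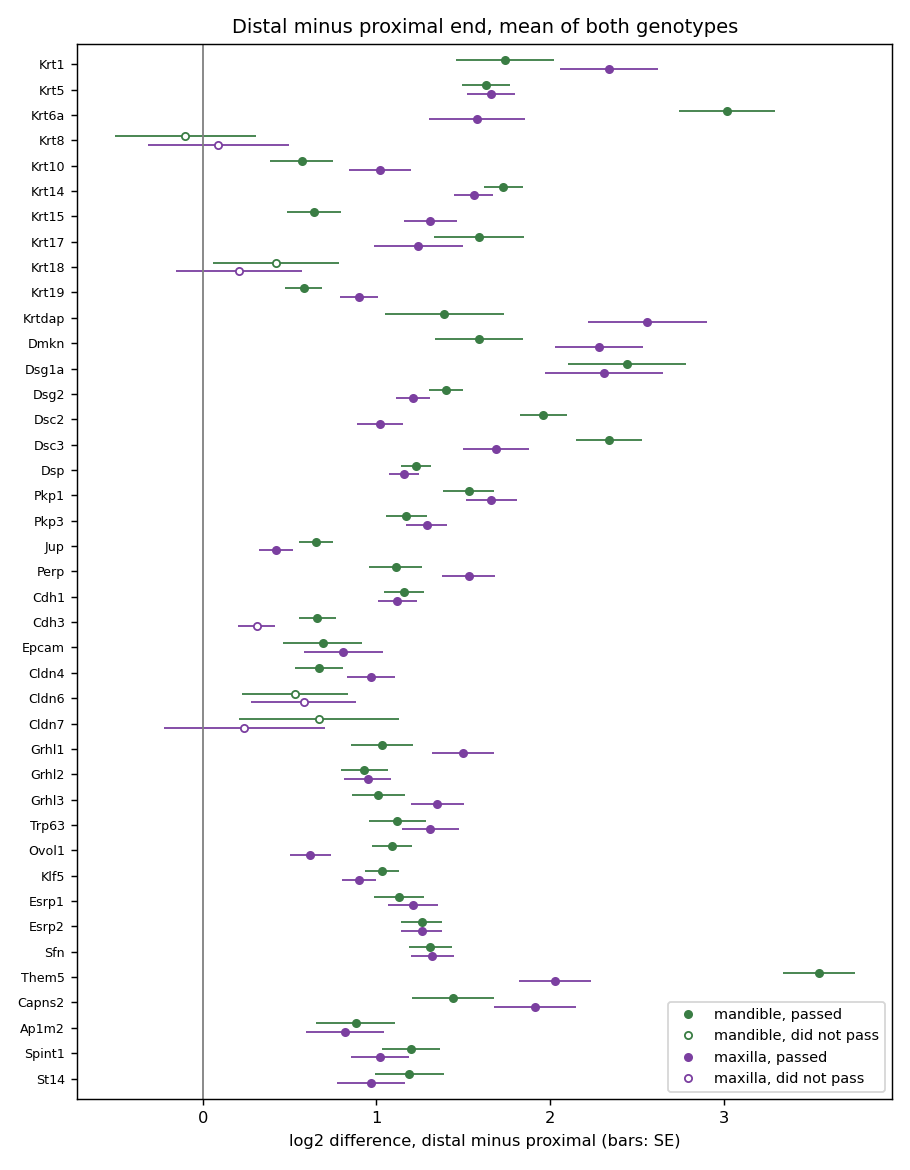
Distal minus proximal difference in log2 level for each of the 41 genes (± SE), in the mandible (green) and the maxilla (purple), with filled points for genes past adjusted p 0.05 and open points for the rest. Them5 (3.55) and Krt6a (3.02) lie farthest to the right in the mandible, Krtdap (2.56) in the maxilla, and Krt8 lies near 0 in both.

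**Figure D4:**
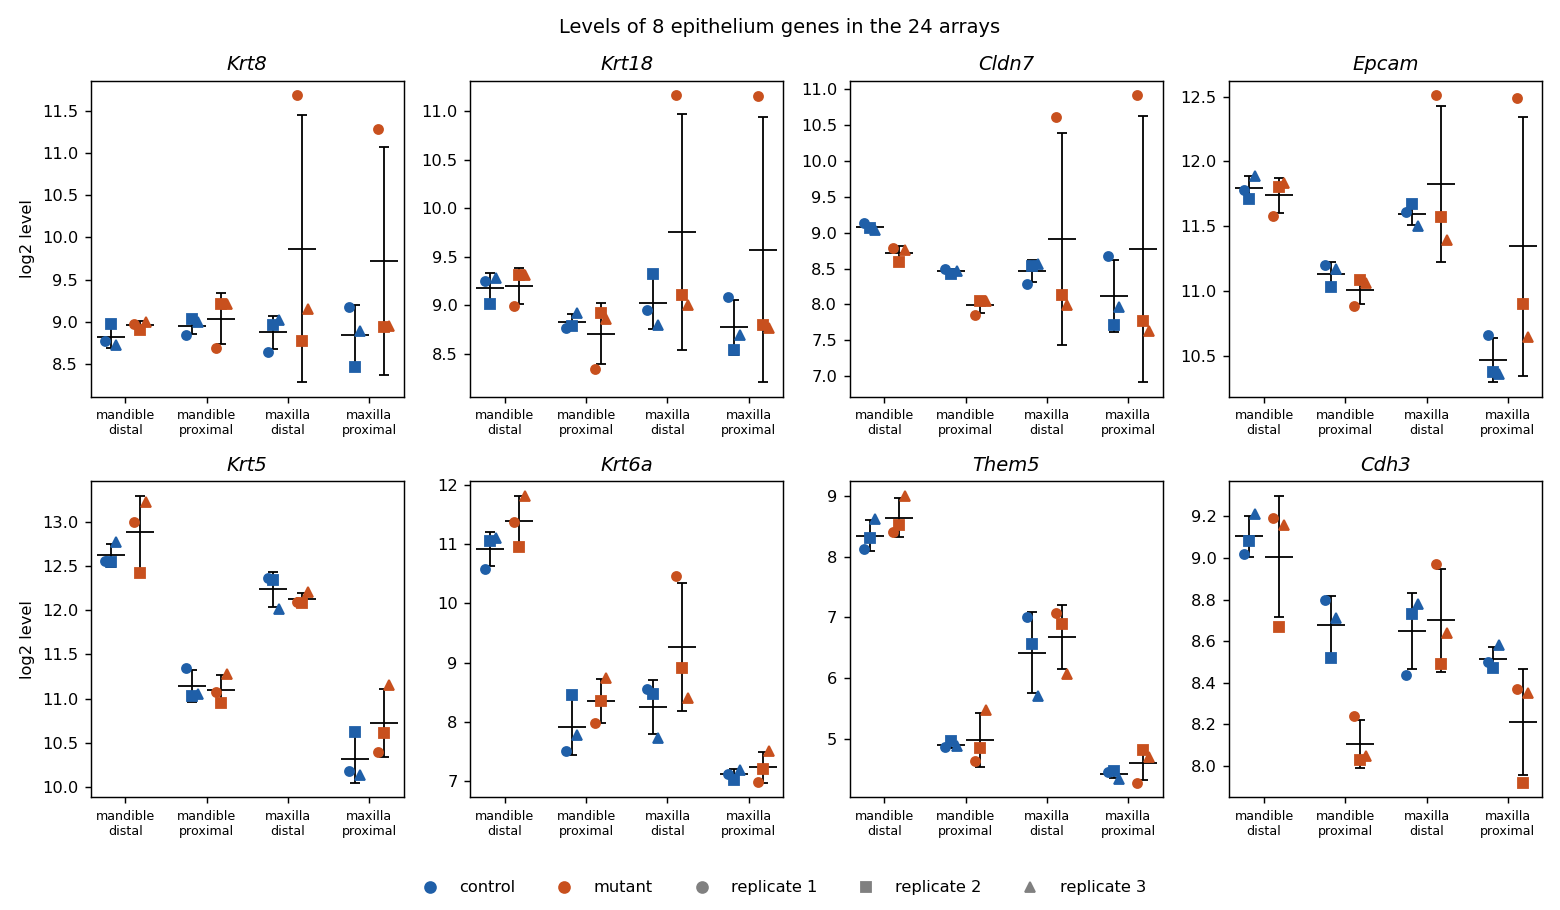
Log2 levels of Krt8, Krt18, Cldn7, Epcam, Krt5, Krt6a, Them5 and Cdh3 on each array by region (x axis), with control in blue, mutant in orange and the group mean ± SD. In Krt8, Krt18 and Cldn7 a single mutant array stands alone in each end of the maxilla, whereas Krt5, Krt6a and Them5 step down from distal to proximal.

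Other epithelial genes came from lists of structures that the 41 genes do not cover, likewise chosen with earlier results known. Where called they were mostly higher distally, but in several lists many genes were not called. Of all genes, 12.7% were called higher and 13.1% lower in the distal mandible, and 6.89% each way in the distal maxilla. Of 11 genes of hemidesmosomes and the epidermal basement membrane, which anchor basal cells, 9 were higher in the distal mandible and 8 in the distal maxilla, among them Lamb3 (1.61 and 1.23) and Col7a1 (1.37 and 1.21). Of 13 genes of oral ectoderm signalling, 12 and 11 were higher. Shh, the ligand of tooth and palate epithelium, differed by 3.05 in the mandible and 1.19 in the maxilla, and Sostdc1, a BMP and WNT antagonist, by 1.16 and 1.19. Of 17 late differentiation genes 10 and 7 were higher, such as Calml3 (1.86 and 1.41), and of 17 tight junction genes 10 and 7, such as Ocln (0.92 and 0.92). Of 12 further epithelial transcription factors 5 were higher and 1 lower in the mandible and 6 higher in the maxilla, led by Tfap2c (1.86) and Gata3 (1.36). Of 9 periderm genes 5 were higher and 1 lower, and then 3 higher, among them Ripk4 (1.18 and 1.34).

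Between the jaws, with both genotypes averaged, the mandible had the higher levels where a difference passed. At the distal end 14 of the 41 genes were higher in the mandible and none lower, where 5.36% of all genes were higher and 8.48% lower, and the median difference over the 41 was 0.34. The desmosome genes (6 of 9) and a few keratins (3 of 10) supplied most calls. Krt6a differed by 2.40 ± 0.28, 5.29-fold (limma, adjusted p = 5.69e-06), with control distal arrays at 8.56, 8.47 and 7.72 in the maxilla and, as given above, at 10.59 or more in the mandible. Them5 followed with 1.95, Dsc3 with 1.52 (2.86-fold), Dsc2 with 1.23 (2.34-fold), Dsg1a with 1.2, Krt14 with 0.85, Dsg2 with 0.75 and Pkp1 with 0.63. The 14 include Them5, Dsg1a and Ovol1, which were tested for the most part through distal arrays. Their jaw differences are given as values without a test, and with no filter on low values all 14 kept their call. All 6 mandible arrays were above all 6 maxilla arrays for 9 of the genes (2.08% of all genes). Replicate number 3 carried much of the difference: the mean over the 41 genes differed by 0.17, 0.23 and 0.84 in control sets 1 to 3 and by 0.00, 0.27 and 0.96 in the mutant sets. Without control replicate 3 the count was 8, and without the arrays of replicate 3 of both genotypes 6 were higher and 2 lower, while without the mutant replicate 1 maxilla arrays it was 20. Pitx1, a factor of the mandibular arch, was higher in the mandible by 1.63 distally and 1.36 proximally, the direction the jaw labels give. Of 12 muscle markers 11 were lower in the distal mandible and of 10 cartilage markers 7 higher, and their part was not tested.

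At the proximal end 17 genes were higher in the mandible and none lower, where 4.38% of all genes were higher and 5.6% lower, with a median of 0.37 over the 41 genes. The differentiation products led, with Krtdap higher by 1.35 ± 0.34 (2.55-fold, adjusted p = 0.0145) and Dmkn by 1.06 ± 0.25 (2.09-fold, adjusted p = 0.00963). Krt6a (0.97), Capns2 (0.95), Dsc3 (0.86), Perp (0.76), Pkp1 (0.75) and Krt15 (0.74) came next. The other Krt6a probe sets gave 0.31 and 0.34, and Krt6a lost its call with the mean of its probe sets. Dmkn read 7.25, 6.60 and 6.98 on control mandible and 5.68, 5.72 and 5.48 on control maxilla arrays, and 6.67, 6.88 and 7.09 against 5.42, 6.43 and 6.36 in the mutants. The jaws did not overlap, and they lay closer in the mutants. Over the 41 genes the median difference was 0.67 in controls, with 40 genes higher in the mandible, and 0.02 in mutants, with 23 higher. The mean over the 41 genes differed by 0.68, 0.51 and 0.74 in control sets 1 to 3. In mutant sets 1 to 3 it differed by -0.11, 0.19 and 0.33, and mutant set 1 holds the outlying maxilla array. That contrast between the genotypes was not tested at this end alone, and averaged over both ends it was called for none of the 41 genes. The count of 17 was 7 without control replicate 1, 10 without control replicate 3 and 22 without the mutant replicate 1 maxilla arrays. Of 10 neuron markers 9 were lower and of 6 bone markers 6 higher in the proximal mandible, and their part was not tested.

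The distal to proximal difference itself was larger in the mandible than in the maxilla for 3 of the 41 genes and smaller for none (2.79% of all genes were called as larger and 3.44% as smaller). The 3 include Them5, which had to differ between the ends to be tested, and with no filter on low values all 3 kept their call. Dsc2 differed by 0.95 ± 0.19 (limma interaction, adjusted p = 0.00496) and Krt6a by 1.44 ± 0.39 (adjusted p = 0.0329). Them5 differed by 1.51 ± 0.29, with proximal values low in both jaws. It was among the tested genes only through distal arrays, so its value is given without a test. With the set as a block, which the correlated arrays of a set call for, 5 were larger and 1 smaller, adding Ovol1 (0.47), Cdh3 (0.35) and, as the smaller one, Krt15 (-0.67). Over the alternatives the Them5 value ran from 0.83 to 1.7. Dsc2 lost its call without control replicate 3, and Krt6a without any 1 of the 3 control replicates, mutant replicate 2 or mutant replicate 3 (adjusted p up to 0.532 over all alternatives).

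Between mutant and control, at most 1 of the 41 genes was called in each of the distal mandible, the proximal mandible and the distal maxilla. In the distal mandible none of the 41 was called by limma (0.895% of all genes were), and 1 had an unadjusted p under 0.05. That gene was Jup, at 9.92, 9.24 and 9.73 in mutant and 9.13, 9.19 and 9.21 in control arrays (0.46 ± 0.14, adjusted p = 0.118). In the proximal mandible Cdh3 alone was called, as lower (2.51% of all genes were lower and 2.85% higher). Its mutant arrays read 8.24, 8.03 and 8.05 and its control arrays 8.80, 8.52 and 8.71. All mutant arrays lay below all control arrays, and the difference was -0.57 ± 0.15, 0.67 of the control level (limma, adjusted p = 0.0308, and 0.00134 to 0.425 over the alternatives). The call ended without any 1 control replicate, without mutant replicate 3 and with the mean of Cdh3's probe sets. Sfn (-0.45, adjusted p = 0.156) and Dsg2 (0.32, adjusted p = 0.201) came next. In the distal maxilla none was called by limma (7.08% of all genes were), and 3 had an unadjusted p under 0.05. Krt15 read 11.88, 12.37 and 12.24 in mutant and 12.96, 12.64 and 12.60 in control arrays, without overlap (-0.57 ± 0.22, adjusted p = 0.121). Krt6a (1.01, adjusted p = 0.126) rested on mutant array 1 at 10.47, the others reading 7.72 to 8.90, and was at 0.40 without it (adjusted p = 0.529), and Sfn was at -0.39 (adjusted p = 0.191).

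In the proximal maxilla 8 of the 41 genes were higher in the mutant and none lower, where 3.32% of all genes were higher and 2.38% lower. The median difference over the 41 was 0.45, against 0.02 over all genes, whose 5th to 95th percentile ran from -0.29 to 0.44. The 8 were junction genes, regulators and a protease inhibitor, with none of the 10 keratins. Cdh1 read 11.24, 10.81 and 10.48 in the mutant and 10.17, 9.98 and 9.68 in the control arrays. The groups did not overlap, and the difference was 0.90 ± 0.16, 1.87-fold (limma, adjusted p = 0.00431). Esrp2 read 8.98, 8.27 and 8.67 against 7.97, 7.97 and 7.63, again without overlap, at 0.78 ± 0.17, 1.72-fold (adjusted p = 0.0115). Grhl1 read 8.54, 7.45 and 7.48 against 6.72, 6.85 and 6.63, with mutant array 1 far above the others, at 1.09 ± 0.25, 2.13-fold (adjusted p = 0.0185). Spint1 (0.83), Grhl2 (0.68), Dsg2 (0.67), Dsc2 (0.66) and Dsp (0.47) were the other 5. Other probe sets of 5 of these 8 genes, all dimmer than the one used, went the other way in the mean over regions. They were 1 of Esrp2 (-0.32), 1 of Dsc2 (-0.15), 1 of Dsp (-0.05), 2 of Grhl2 (-0.06 and -0.09) and several of Dsg2 (down to -0.19). Averaged over the maxilla alone, these read -0.2, -0.08, 0.0, -0.03 and -0.12, and -0.18 to 0.15 in turn. Further probe sets of Dsp (0.42), Dsg2 (0.28) and Grhl2 (0.07) went the same way as the one used, in the mean over regions. Averaging a gene's probe sets gave a count of 2.

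Several of these calls rested on few arrays. Without the mutant replicate 1 maxilla arrays 4 genes were called, Cdh1 (0.70, adjusted p = 0.0195), Spint1 (0.53), Dsp (0.56) and, newly, Pkp1 (0.76), while the median over the 41 genes was 0.41. The count was 1 without control replicate 1, 2 without control replicate 2, 0 without control replicate 3, 5 without mutant replicate 1 and 12 without mutant replicate 2. With the set as a random block it was 4. All 3 mutant arrays were above all 3 control arrays for 18 of the genes (13.9% of all genes). Neuron markers were called for none of 10 there, with summed levels of 11265, 14425 and 31318 on the mutant and 20333 to 25954 on the control arrays, and 1 of 6 bone markers was lower. Their part was not tested. With the Gapdh 3' minus 5' difference, which was high in mutant sets 1 and 3, entered as a covariate, the calls were 7 higher and 1 lower, 6 of them among the 8, with Grhl2 and Spint1 losing their calls. Among other epithelial genes, Ripk4 (1.00), Marveld2 (0.82), Lypd3 (0.72) and Prdm1 (0.61) were higher in the same comparison.

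**Figure D5:**
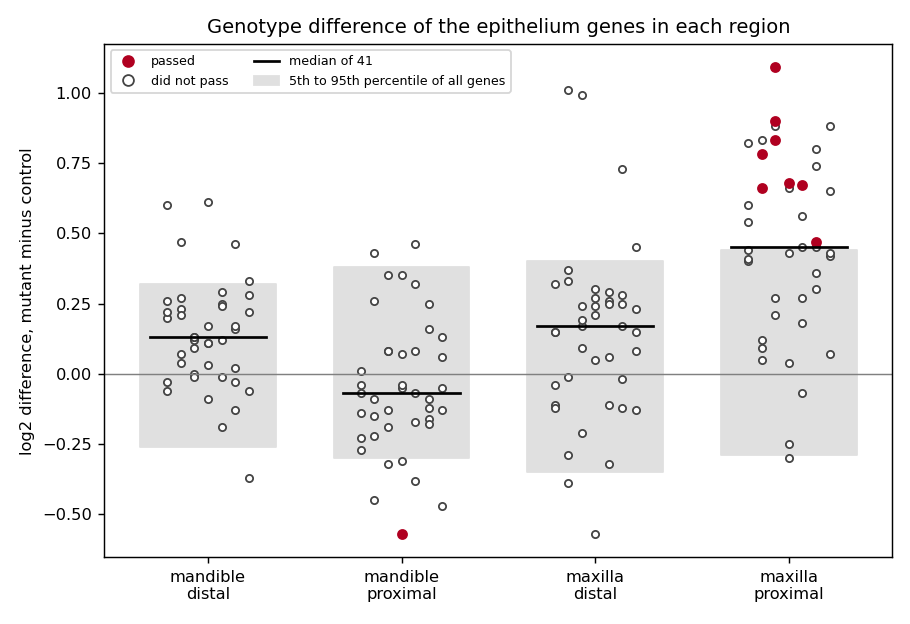
Mutant minus control difference in log2 level for each of the 41 genes in the 4 regions (x axis), with red points for genes past adjusted p 0.05, a bar at the median of the 41 and a grey band from the 5th to the 95th percentile of all genes. In the proximal maxilla the median is 0.45 and 8 genes are red, and in the proximal mandible the median is -0.07 and only Cdh3 is red.

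Averaged over the 4 regions, 7 genes were higher in the mutant (18.3% of all genes were) and 1 was lower (15.5%). Dsg2 (0.37 ± 0.07, limma adjusted p = 5.20e-04), Jup (0.36 ± 0.07, adjusted p = 6.48e-04), Dsc2 (0.34), Cdh1 (0.32), Grhl2 (0.27), Dsp (0.24) and Klf5 (0.21) rose, and Cdh3 (-0.23) fell. The share called is near or below that of all genes. Dsg2 lost its call with the mean of its 6 probe sets (0.05, adjusted p = 0.731), of which 4 lay at or below 0, and Dsc2 and Dsp lost theirs too. With the Gapdh covariate 5 were higher and 1 lower, and Jup was among those lost. Without the mutant replicate 1 maxilla arrays 8 were higher and 2 lower, and Grhl2 lost its call (0.16, adjusted p = 0.0919). Other cell types differed in the same comparison, with 4 of 9 macrophage markers lower and 1 higher (Lyz2 -1.11) and 5 of 9 endothelium markers lower and 1 higher (Cldn5 -0.42), and their part was not tested. With the set as a random block, Dsg2 and Jup were called, and with 1 value per set none was, although 10 had an unadjusted p under 0.05. The count ran from 4 without control replicate 3 to 12 without mutant replicate 2, with 5 without control replicate 1 and 5 without control replicate 2. The difference of the genotype effect between the jaws was called by limma for none of the 41 genes and none of the 13850 (0.0%), of which 480 had an unadjusted p under 0.05. Among these were Grhl1 (-0.83), Cdh1 (-0.44) and Esrp2 (-0.39). The difference between the ends was called by limma for none either (0.0% of all genes), with 430 genes and, of the 41, Cdh3 (0.42) and Cdh1 (-0.34) at an unadjusted p under 0.05.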

How the data were processed

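Jaw RNA was measured on 24 Affymetrix arrays. The deposited values are log2 levels made with RMA by the authors, per the submitters' processing notes. For the RMA version, and for which arrays were normalized together, the answer was not given in the sources used here. Of 45101 probe sets, 34958 name 1 gene symbol, 932 several and 9211 none, from the platform annotation; no symbol changed through RefSeq (GRCm38.p6). Each of 18194 genes took its probe set with the highest mean, and the 13850 above the 40th percentile of the array on at least 3 arrays were tested. limma 3.58.1 in R 4.3.3 fitted 1 mean per group (16 residual degrees of freedom, lmFit and eBayes), with Benjamini-Hochberg adjustment over all genes and calls at 0.05. Code was tested on simulated data. The members and lists were chosen with earlier results of these data known. The 16 lists of other genes hold 199 symbols, of which 181 were found.

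Arrays of a set deviated together. The correlation of deviations from the group means was above 0.1 in 6 of 6 distal with proximal pairs of each jaw. Between the jaws it was above 0.1 in 6 of 6 distal and 5 of 6 proximal pairs. The main fit, behind the p-values and calls unless an alternative is named, had no block and ignored this pairing. The set entered only in alternatives and in descriptions by set. Control and mutant arrays of a number had a correlation above 0.1 in 5 of 12 pairs and share only a number. The random block (duplicateCorrelation, statmod 1.5.0) had a correlation of 0.40. Every member is accounted for: per comparison the text names at most 8 called members each way by size, members with the smallest p where fewer than 3 were called, and at most 3 called genes of another list. Alternatives were other filters and probe set rules, blocks, a Gapdh covariate, and arrays left out.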

Additional observations from a re-analysis of the deposited data

Results flagged for a closer look

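For Dsc2 and Krt6a the distal to proximal difference was not the same in both jaws, by a test of the difference itself (limma interaction, Benjamini-Hochberg adjusted over 13850 genes). Them5 is listed with them as a value only. Them5 was higher distally by 3.55 in the mandible and by 2.03 in the maxilla on the log2 scale, a difference of 1.51 ± 0.29 (SE). Its proximal values were low in both jaws and the jaws differed by 0.43 there, against 1.95 at the distal end, so this value largely restates the distal gap between the jaws. Them5 was also among the tested genes only through distal arrays, and its value is therefore given without a test. Krt6a was higher distally by 3.02 and 1.58, a difference of 1.44 ± 0.39 (adjusted p = 0.0329). Dsc2 was higher distally by 1.96 and 1.02, a difference of 0.95 ± 0.19 (adjusted p = 0.00496). All 3 were higher distally in each of the 6 sets in both jaws.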

How the results depend on the processing

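The counts of the 41 genes called between the ends, 37 in the mandible and 36 in the maxilla, stayed within 1.5 times under every alternative (35 to 40 and 33 to 37 with single replicates left out, mean differences 1.21 to 1.30 and 1.17 to 1.30), and no alternative turned a direction. With the replicate block of sets the counts were 37 and 37. As a block, the bare replicate number gave 9 genotype calls averaged over regions (8 without the block) and 9 in the proximal maxilla (8), and changed no count by over 1.5 times. The genotype counts depended on the processing, and the cause was not tested. Averaged over regions, the count was 5 with the mean of all probe sets, 2 with the random set block (replicate block), 0 with 1 value per set and 4 without control and mutant replicate 3 (4 to 12 with single replicates left out). In the distal mandible it was 1 without mutant replicates 1 and 3 (0 to 1). In the proximal mandible it was 0 with the mean of probe sets and without replicate 3 of both genotypes, and 2 without mutant replicates 1 and 3, with the Gapdh covariate and with only the groups compared (0 to 1). In the distal maxilla it was 3 with the Gapdh covariate (0 to 2). In the proximal maxilla it was 2 with the mean of probe sets, 5 with no filter, 4 with the random set block, 4 without the mutant replicate 1 maxilla arrays, and 0 both without replicate 3 and with only the groups compared, which leaves fewer arrays to estimate the spread (0 to 12). Between the jaws, the counts were 9 distally and 10 proximally without mutant replicates 1 and 3, and 8 and 8 without replicate 3, with a distal mean difference of 0.17 (8 to 20 and 7 to 19 with single replicates left out, the distal mean difference then running from 0.27 to 0.52). Proximally the count was 22 without the mutant replicate 1 maxilla arrays. The end difference between jaws was called for 6 genes with either set block, 5 without the mutant replicate 1 maxilla arrays and 1 without replicate 3 (1 to 4). The mean genotype difference between jaws ran from -0.44 to -0.09 with single replicates left out. Over single genes and alternatives, 2202 results kept direction and side of the threshold and 252 lost their call. The fits without replicate 3 of both genotypes and without the mutant replicate 1 maxilla arrays were chosen after seeing the data. No detection calls were used, so how near background dim genes such as Them5 lie at the proximal ends was not tested.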

Other observations

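The array-to-array variation of the epithelial genes within groups was described by their deviations from the group means. Over 24 arrays, the median Pearson correlation between pairs of the 41 genes was 0.28, and it was 0.38 over the 22 arrays without the mutant replicate 1 maxilla arrays. The arrays share RMA normalization, so these values carry no test. Grhl1 (0.79), Them5 (0.77), Grhl2 (0.75) and Krt1 (0.74) followed the mean of the other 40 most closely, and Krt15 (0.01), Krtdap (0.06) and Trp63 (0.07) least. Over 22 arrays Krt15 (0.79) and Krtdap (0.64) followed it too, while Krt8 (-0.19) did not. Among genes outside the 41, the deviations most like those of the members' mean over 24 arrays were those of Ier5 (0.89), Asprv1 (0.89), Hspa2 (0.84), Acot1 (0.82), Mgat5 (0.81), Ly6d (0.81), Clic3 (0.81), Cpxm2 (0.80), Tbcc (0.79) and Rab27b (0.79). Ier5 and Asprv1, a protease of stratified epithelium, also led over the 22 arrays (0.88 and 0.86), followed there by Tfap2a (0.84), a factor of surface ectoderm.

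Markers of further cell types were also set side by side between the ends. Of 9 macrophage markers 8 were lower in the distal mandible, such as Lyz2 (-0.87) and C1qa (-0.66), and none was called by limma in the maxilla. Of 9 endothelium markers 3 were lower in the distal mandible, such as Tek (-0.71), and 1 in the distal maxilla, Emcn (-0.51). Of 6 Schwann cell markers Fabp7 was lower in both jaws (-0.82 and -2.03). None of 7 red blood cell markers was called by limma in either jaw. Of 8 markers of eye, olfactory and pituitary epithelium, 1 was lower in the distal mandible, Pmel (-0.69).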
